A study of Homo sapiens with 12 samples.

Results

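The CCN family comprises 6 secreted matricellular proteins, CCN1 to CCN6, which sit in the extracellular matrix without forming its scaffold. All 6 genes were found by name among the 60645 gene names counted in each library. The family was chosen by measured values of these libraries, but which values is not given. They are assumed here to be the lower level of CCN1 with EWS-FLI1 averaged over the ARID1A states. The effects of EWS-FLI1 on the members are therefore described below without a test, and the differences between ARID1A states are tested. If differences between states also entered the choice, those tests are not free of it.

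CCN proteins are built from an insulin-like growth factor binding domain, a von Willebrand type C domain, a thrombospondin type 1 domain and a cystine-knot C-terminal domain, the last of which CCN5 lacks. They bind integrins, heparan sulfate proteoglycans and low-density lipoprotein receptor-related proteins, and modulate growth factors such as TGF-β, BMPs and VEGF. CCN1 and CCN2 are immediate early genes and are widely used as readouts of the coactivators YAP and TAZ acting with TEAD factors. CCN4 and CCN5 were first described as genes induced by Wnt-1.

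PolyA RNA was sequenced from HEK-293T, a human embryonic kidney cell line, in which ARID1A had been knocked out. ARID1A belongs to BAF complexes of the SWI/SNF class, which move and evict nucleosomes. IDR1b is a segment of one of its intrinsically disordered regions. EWS-FLI1 is the fusion transcription factor of Ewing sarcoma. All 12 libraries carried the knockout. The 6 groups of 2 libraries combined no added ARID1A (empty vector), wild-type ARID1A (WT) or ARID1A without IDR1b (ΔIDR1b) with either a second empty vector (EV) or EWS-FLI1 (EF). The protocol gives 2 µg of pcDNA plasmid for EWS-FLI1 and 48 h of growth. Whether the knockout line was a single clone, and how ARID1A was delivered, is not given in the sources used here, and the parental line with its own ARID1A was not analysed here. Nothing in the labels says that the 2 repeats were separate cultures, so p-values measure only the spread between these libraries.

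The library totals ran from 11702251 to 14445379 counts. Levels are in CPM, counts relative to the library total after TMM scaling. ARID1A stood at 156 ± 12.1 CPM without added ARID1A, 2056 ± 25.8 CPM for WT and 2787 ± 130 CPM for ΔIDR1b among empty-vector libraries (SD, n = 2 each), so the form of ARID1A and the level of its RNA cannot be told apart between WT and ΔIDR1b. FLI1 had at most 2 counts in a library without EWS-FLI1. With it, FLI1 reached 1759 ± 100 CPM without ARID1A, 3568 ± 151 CPM beside WT and 1897 ± 13.2 CPM beside ΔIDR1b (SD, n = 2 each). The part of these levels in the results below was not tested. Of 7 markers of the HEK-293T line, 6 had a mean of at least 1 CPM, and the neurofilament gene NEFM had 2 counts in all libraries together. Their summed level ran from 793 to 839 CPM in no ARID1A with the empty vector down to 540 to 566 CPM in ΔIDR1b with EWS-FLI1. The summed smooth muscle list (3 of 4 markers at 1 CPM or more) ran from 7.09 to 8.62 CPM in no ARID1A, 8.48 to 10.2 in WT and 13.2 to 16.6 in ΔIDR1b. The summed fibroblast list (3 of 7 markers at 1 CPM or more, with 1 count of COL1A2 in all) ran from 87.2 to 97 CPM, 92.1 to 118 and 122 to 135. The part of these lists was not tested either. The leukocyte marker PTPRC had 3 counts in all, and no endothelial marker reached a mean of 1 CPM.

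The family split into 3 pairs. CCN1 and CCN2 were higher in WT than in no ARID1A and lower in ΔIDR1b than in WT, CCN1 also falling below the knockout level. CCN3 and CCN4 were near or at 0 in no ARID1A and stood at a few CPM in both WT and ΔIDR1b. CCN5 and CCN6 had at most 9 counts in any library. In RNA from whole cultures, fewer cells that express a gene and less RNA per cell cannot be told apart.

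A filter on low counts left 20377 genes for the test, among them CCN1 to CCN4. CCN3 and CCN4 passed it only through the WT and ΔIDR1b libraries and so had to differ from no ARID1A. Their differences from that state are therefore not counted as calls here. With the empty vector, CCN1 and CCN2 were called higher in WT than in no ARID1A, where 6.5% of all tested genes were called higher and 5.19% lower. In ΔIDR1b against no ARID1A, CCN1 and CCN2 were called lower, where 16.4% of all tested genes were higher and 16.8% lower. In ΔIDR1b against WT, 2 of the 4 tested members were lower (CCN1, CCN2) and 0 higher, against 13.4% and 11.1%, and DESeq2 also called 2. The unadjusted p was under 0.05 for 3. With EWS-FLI1, CCN1 and CCN2 were higher in WT than in no ARID1A, against 9.72% of all tested genes higher and 8.36% lower. In ΔIDR1b against no ARID1A, CCN1 was lower and CCN2 was not called, where 18.1% of all tested genes were higher and 17.9% lower. In ΔIDR1b against WT, 2 were lower and 1 higher (CCN4), against 10.1% and 8.48%. These calls used edgeR's quasi-likelihood F-test, 2-sided, at a Benjamini-Hochberg adjusted p under 0.05 over all tested genes of a comparison.

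CCN1 (formerly CYR61; chromosome 1, 85580761 to 85584589, plus strand, GRCh38, as are all positions here) encodes a secreted ligand of integrins in adhesion, angiogenesis and wound repair. It was the most abundant member. Its mean of 80 CPM per kilobase of exon exceeded that of 98.2% of the tested genes, and none of its exonic bases overlapped another gene. In no ARID1A it stood at 354 and 341 CPM with the empty vector and at 270 and 245 CPM with EWS-FLI1. In WT the values were 607 and 534 CPM, and 397 and 369 CPM. In ΔIDR1b they were 115 and 137 CPM, and 83.2 and 96.3 CPM. The WT libraries were thus the highest and the ΔIDR1b libraries the lowest with either vector. The order of the groups was WT with the empty vector, WT with EWS-FLI1, no ARID1A with the empty vector, no ARID1A with EWS-FLI1, ΔIDR1b with the empty vector and, lowest, ΔIDR1b with EWS-FLI1. The smallest gap between neighbours was that of WT with EWS-FLI1 (383 ± 19.9 CPM) over no ARID1A with the empty vector (347 ± 8.87 CPM; SD, n = 2 each), whose nearest libraries lay at 369 and 354 CPM.

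CCN1 was 1.64-fold higher in WT than in no ARID1A among empty-vector libraries (0.72 on the log2 scale, SE 0.10, adjusted p = 1.30e-05, edgeR) and 1.49-fold with EWS-FLI1 (0.57, SE 0.10, adjusted p = 1.69e-04). In ΔIDR1b it was lower than in both other states. It was 2.76-fold below no ARID1A with the empty vector (a log2 change of -1.46, SE 0.11, adjusted p = 1.35e-12) and 2.87-fold below it with EWS-FLI1 (-1.52, SE 0.11, adjusted p = 5.33e-13). Between the 2 forms of ARID1A the level differed 4.53-fold with the empty vector (log2 fold change -2.18, 95% interval -2.40 to -1.96, adjusted p = 3.86e-16) and 4.27-fold with EWS-FLI1 (-2.09, -2.32 to -1.87, adjusted p = 1.28e-15). Ranked by log2 fold change from the lowest, CCN1 stood at place 336 and place 444 of the 20377 tested genes in these 2 comparisons. These calls of CCN1, 6 in all, kept an adjusted p of at most 0.0159 under every other fit and with each library left out, while the 2 differences of WT from no ARID1A lie under a log2 limit of 1.

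CCN2 (formerly CTGF; chromosome 6, 131948176 to 131951372, minus strand) encodes connective tissue growth factor, a mediator of matrix production downstream of TGF-β. Of its exonic bases, 8.34% overlap exons of the antisense gene CCN2-AS1. Counting ignored the strand, and fragments that overlapped both genes were not counted. CCN2-AS1 itself had at most 5 counts in any library. CCN2 is known to be bound by TEAD factors just upstream of its start, so the RefSeq sequence of the 250 bases before the start (GRCh38.p14, as the table of promoters gives it) is shown for it and, for comparison, for CCN6, a member with hardly any counts. The table held 2 of the 6 members. For CCN6 the RefSeq start lies downstream of the gene start at 112054075 given below from the count files, so the last bases of its window lie inside that gene. Capitals mark the TEAD motif GGAATG.
CCN2 (chr6:131951373-131951622, minus strand, 5′ to 3′): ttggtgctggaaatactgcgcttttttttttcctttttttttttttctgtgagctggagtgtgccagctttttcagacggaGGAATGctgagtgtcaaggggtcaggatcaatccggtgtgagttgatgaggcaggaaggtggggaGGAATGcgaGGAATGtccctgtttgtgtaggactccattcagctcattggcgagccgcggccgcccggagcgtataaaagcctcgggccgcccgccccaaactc
CCN6 (chr6:112053854-112054103, plus strand, 5′ to 3′): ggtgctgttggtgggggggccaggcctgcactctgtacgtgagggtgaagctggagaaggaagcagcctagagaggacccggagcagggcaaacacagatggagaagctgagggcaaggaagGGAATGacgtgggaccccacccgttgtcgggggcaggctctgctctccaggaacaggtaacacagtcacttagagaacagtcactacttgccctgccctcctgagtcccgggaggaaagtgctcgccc

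Searched on both strands, the motif GGAATG occurred 3 times before CCN2 (first bases at -169, -104 and -95 from the start) and 1 time before CCN6 (-128). At least 1 match was present in 11.9% of 35116 promoter windows of this length, and 3 or more in 0.0826% (29 windows). The ETS core GGAA, the letters that FLI1 and its relatives share, matched 6 times before CCN2 and 5 times before CCN6. In that window 92.7% of promoters hold it, and each GGAATG also counts as a GGAA. The repeat GGAAGGAA, the kind of sequence EWS-FLI1 is known to bind in microsatellites, was found in neither window and in 3.06% of all. The AP-1 motif (TGACTCA, with its reverse complement TGAGTCA; 4.2% of all) and the CArG box of SRF (1.16%) were found in neither. TATAAA matched 1 time before CCN2, at -32, and 10.7% of all windows hold it on either strand. Such matches describe letters in these windows and show no binding.

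In no ARID1A, CCN2 stood at 5.65 and 9.42 CPM with the empty vector and at 7.25 and 6.31 CPM with EWS-FLI1. In WT the libraries held 18.2 and 14.5 CPM, and 14.2 and 11.4 CPM. In ΔIDR1b they held 3.95 and 4.15 CPM, and 5.8 and 5 CPM. All 4 WT libraries thus lay above all others, and the ΔIDR1b libraries lay below those of no ARID1A with the same vector. The 2 no-ARID1A libraries with the empty vector were far apart, at 76 and 126 counts.

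CCN2 rose 2.17-fold in WT over no ARID1A among empty-vector libraries (1.11 on the log2 scale, SE 0.23, adjusted p = 0.00134, edgeR) and 1.88-fold with EWS-FLI1 (0.91, SE 0.24, adjusted p = 0.00646). The first call was lost without repeat 1 of no ARID1A (adjusted p = 0.0742) or of WT (0.0518), and the second without repeat 2 of no ARID1A with EWS-FLI1 (0.0856). Against no ARID1A, ΔIDR1b had a 1.86-fold lower level with the empty vector (-0.89, SE 0.26, adjusted p = 0.00706). Without repeat 2 of no ARID1A this was -0.48 (adjusted p = 0.279), and without repeat 1 of ΔIDR1b it was -0.86 (0.0532). With EWS-FLI1 the same difference was -0.33 on the log2 scale, with a 95% interval from -0.84 to 0.19 (adjusted p = 0.334). The 2 forms of ARID1A differed 4.03-fold with the empty vector (-2.01, SE 0.25, adjusted p = 3.17e-07) and 2.36-fold with EWS-FLI1 (-1.24, SE 0.24, adjusted p = 3.94e-04), and both calls held under all alternatives (adjusted p up to 0.00961), a log2 limit of 1 included. CCN1 exceeded CCN2 per kilobase of exon by 9.06 to 39.6 times in the 12 libraries, with the 2 lowest ratios (9.06 and 12.2) in ΔIDR1b with EWS-FLI1. Over the 12 libraries the log2 CPM of CCN1 and CCN2 had a Pearson's r of 0.844, a description over libraries that share 6 groups.

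CCN3 (formerly NOV; chromosome 8, 119416446 to 119424434, plus strand) encodes a member known for restraining proliferation and for acting in stem cells and the nervous system. The antisense gene ENSG00000286282 overlaps 7.8% of its exonic bases and had at most 2 counts in a library. In no ARID1A the libraries held 1 and 4 counts of CCN3 beside the empty vector, against 3 and 7 beside EWS-FLI1. WT held 60 and 52 counts, and 63 and 69. ΔIDR1b held 55 and 84 counts, and 112 and 95. In CPM, WT lay between 3.88 and 5.23 and ΔIDR1b between 4.02 and 7.93, with overlap, and both lay above all libraries of no ARID1A, the highest of which had 0.605 CPM. With EWS-FLI1 alone, the ΔIDR1b libraries lay above the WT libraries.

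WT exceeded no ARID1A in CCN3 by a count ratio of 22.4 with the empty vector (112 against 5 counts, 95% counting interval 9.32 to 70.3) and 11.6 with EWS-FLI1 (132 against 10 counts, 6.12 to 24.8). For ΔIDR1b the ratios were 27 (139 against 5 counts, 11.3 to 84.3) and 16.9 (207 against 10 counts, 9.02 to 35.8). The intervals hold counting error alone, because fragments copied by PCR do not each stand for a molecule. No p is given for these 4 differences, since CCN3 entered the test through the libraries where it is high. The 2 forms of ARID1A did not differ past the threshold. ΔIDR1b minus WT was 0.26 on the log2 scale with the empty vector (95% interval -0.39 to 0.92, adjusted p = 0.597), and -0.06 without repeat 2 of ΔIDR1b. With EWS-FLI1 it was 0.54 (-0.09 to 1.18, adjusted p = 0.236). Neither interval shows the 2 forms to act alike.

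CCN4 (formerly WISP1; chromosome 8, 133191039 to 133231690, plus strand) encodes a secreted protein first found as induced by Wnt-1 and known for roles in bone and fibrosis. In no ARID1A it had 0 counts in both empty-vector libraries, against 7 and 0 beside EWS-FLI1. A floor of 3 counts over both libraries with the empty vector allows up to 0.112 CPM. WT held 25 and 40 counts (1.86 and 2.99 CPM), and 59 and 33 (4.44 and 2.5 CPM). ΔIDR1b held 77 and 59 counts (5.63 and 4.22 CPM), and 110 and 106 (7.79 and 7.37 CPM). The ΔIDR1b libraries lay above the WT libraries with the same vector.

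Against that floor CCN4 was at least 21.7-fold higher in WT and at least 43.9-fold higher in ΔIDR1b with the empty vector, again given without a p. With EWS-FLI1 the count ratios were 11.6 (92 against 7 counts, 95% counting interval 5.39 to 29.6) and 25.2 (216 against 7, 12 to 63.5), and all 7 counts of the denominator came from 1 library. Between ΔIDR1b and WT the log2 fold change was 1.02 with the empty vector (SE 0.41, 95% interval 0.19 to 1.85, adjusted p = 0.0656, edgeR), which was not called, and 1.12 with EWS-FLI1 (SE 0.39, 0.34 to 1.91, adjusted p = 0.0384), which was. Once repeats were blocked within each vector, the former was called too (1.03, adjusted p = 0.0278). The latter was lost in DESeq2 (adjusted p = 0.0562), without repeat 2 of WT (0.77, adjusted p = 0.215), and without repeat 1 (0.156) or 2 (0.104) of ΔIDR1b. CCN3 and CCN4 lie on the same chromosome. Their log2 CPM over the 12 libraries had a Pearson's r of 0.921, again a description, over points that share 6 groups and hold low counts in the 4 libraries of no ARID1A. Per kilobase of exon, CCN3 was 1.42 to 4.77 times as abundant as CCN4 in the 8 libraries with added ARID1A.

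**Figure D1:**
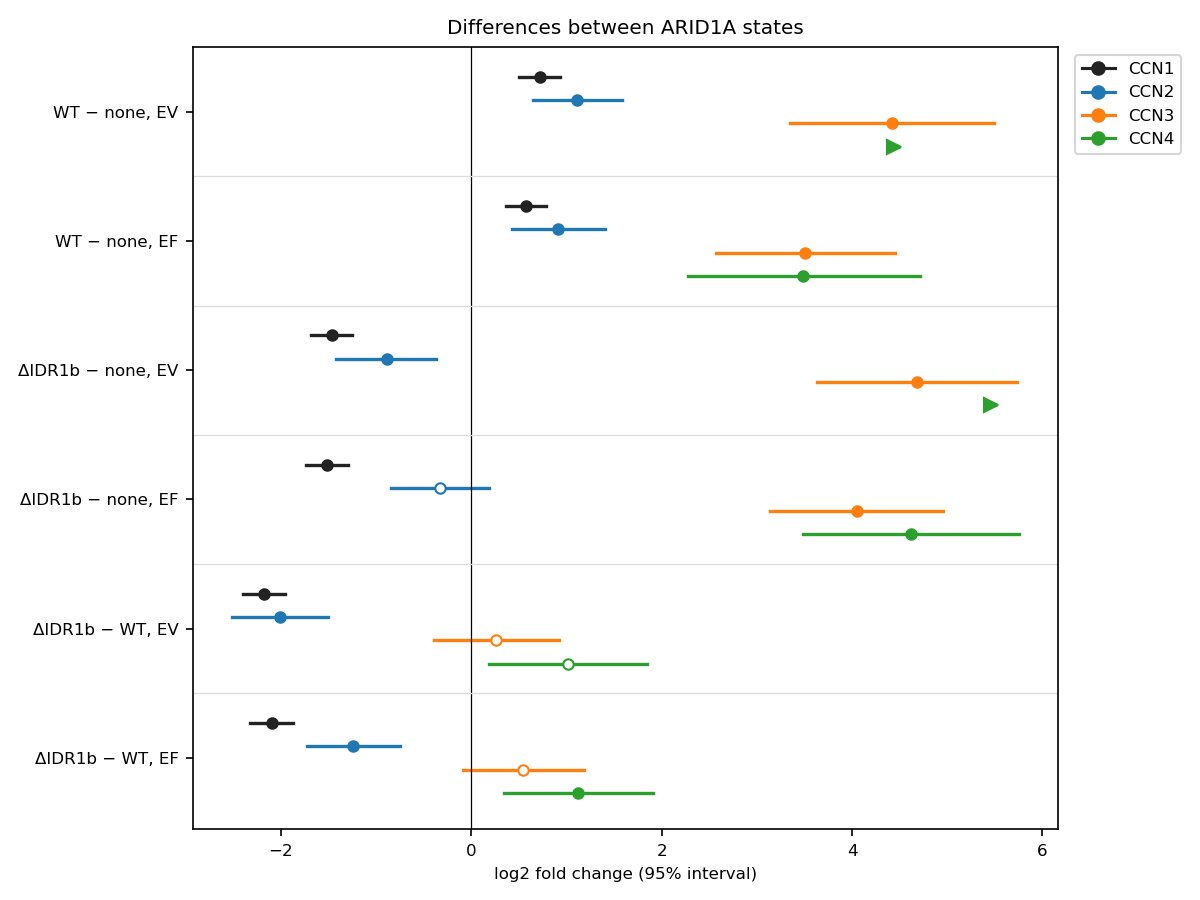
Log2 fold change (x axis, with its 95% interval) of the 4 tested members between ARID1A states, for empty-vector (EV) and EWS-FLI1 (EF) libraries. Filled points passed an adjusted p of 0.05, open points did not, and arrowheads mark the lower bounds for CCN4 against 0 counts, 4.44 and 5.46. For CCN3 and CCN4 against no ARID1A the fill is not read as a test, since both passed the filter through the libraries where they are high. CCN1 and CCN2 lie to the right of 0 for WT against no ARID1A and to the left in the other rows, and CCN3 and CCN4 lie to the right in all 6.

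CCN5 (formerly WISP2; chromosome 20, 44714844 to 44728509, plus strand), the member without the C-terminal domain, and CCN6 (formerly WISP3; chromosome 6, 112054075 to 112069686, plus strand), known from a skeletal dysplasia, did not pass the filter. CCN5 had 46 counts over all 12 libraries, from 1 to 9 in a library. CCN6 had 28, from 0 to 8, and 0 in 4 libraries. Both WT libraries with EWS-FLI1 were among these, which at 3 counts over both allows up to 0.113 CPM. With no filter on low counts edgeR called 0 of 12 differences of these genes between ARID1A states. The unadjusted p was under 0.05 for 1 of them, CCN6 in WT against no ARID1A with EWS-FLI1 (0 against 9 counts, adjusted p = 0.188). By counting error alone, CCN5 was higher in ΔIDR1b than in WT with the empty vector (15 against 3 counts, ratio 4.85, 95% counting interval 1.37 to 26.1). With EWS-FLI1 the ratio was 0.464 (4 against 8 counts, 0.102 to 1.73). Within ΔIDR1b, CCN5 was lower with EWS-FLI1 than with the empty vector (4 against 15 counts, ratio 0.259, 0.0625 to 0.812). At counts this low, no difference between groups is read from these 2 genes.

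The makeup of the family's RNA differed between states. CCN1 made up 97.4 and 95.6% of the family's summed CPM per kilobase in no ARID1A with the empty vector, 94.3 and 94.5% in WT, and 87.5% in both ΔIDR1b libraries. With EWS-FLI1 the shares were 95.3 and 95.4%, 92.5 and 93.1%, and 75.6 and 80.9%. CCN3 and CCN4 together made up at most 0.334% in no ARID1A, 1.19 to 2.32% in WT and 7.32 to 15.2% in ΔIDR1b. The 4 ΔIDR1b libraries thus had the lowest share of CCN1 and the highest of CCN3 and CCN4. The family's sum ran from 69.4 to 98.2 CPM per kilobase in no ARID1A, 107 to 174 in WT and 29.7 to 42.5 in ΔIDR1b.

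The effects of EWS-FLI1 on the members follow as a description. CCN1 was lower with EWS-FLI1 than with the empty vector in each ARID1A state. The log2 fold change was -0.43 (95% interval -0.64 to -0.22) in no ARID1A, -0.57 (-0.79 to -0.36) in WT and -0.49 (-0.71 to -0.27) in ΔIDR1b, which are levels of 0.741, 0.672 and 0.712 times the empty-vector level. In these comparisons 0.0442%, 0.221% and 0.172% of all tested genes were called. Nothing is read from CCN1's place among them or from its intervals lying below 0, since CCN1 is assumed to have been taken up for this effect. The size of the fall in CCN1 was smaller than its differences between ΔIDR1b and either other state.

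CCN2 had log2 fold changes of -0.15 (-0.66 to 0.35) in no ARID1A, -0.35 (-0.80 to 0.10) in WT and 0.42 (-0.12 to 0.95) in ΔIDR1b with EWS-FLI1. Its libraries overlapped between the vectors in no ARID1A, were lower with EWS-FLI1 in WT and higher in ΔIDR1b. CCN3 had values of 1.16 (-0.42 to 2.74), 0.26 (-0.41 to 0.92) and 0.53 (-0.10 to 1.17). CCN4 had 0.52 (-0.34 to 1.37) in WT and 0.62 (-0.14 to 1.38) in ΔIDR1b, and 7 against 0 counts in no ARID1A. Averaged over the states, the log2 change was -0.50 (-0.62 to -0.37) for CCN1, -0.03 (-0.32 to 0.26) for CCN2 and 0.65 (0.04 to 1.26) for CCN3. The averages of CCN1 and CCN3 thus had opposite signs. That of CCN3 rests in part on 10 against 5 counts in no ARID1A, where the libraries overlapped, and each of its intervals within a state includes 0. The average of CCN4 is not given because it rests on a group with 0 counts.

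**Figure D2:**
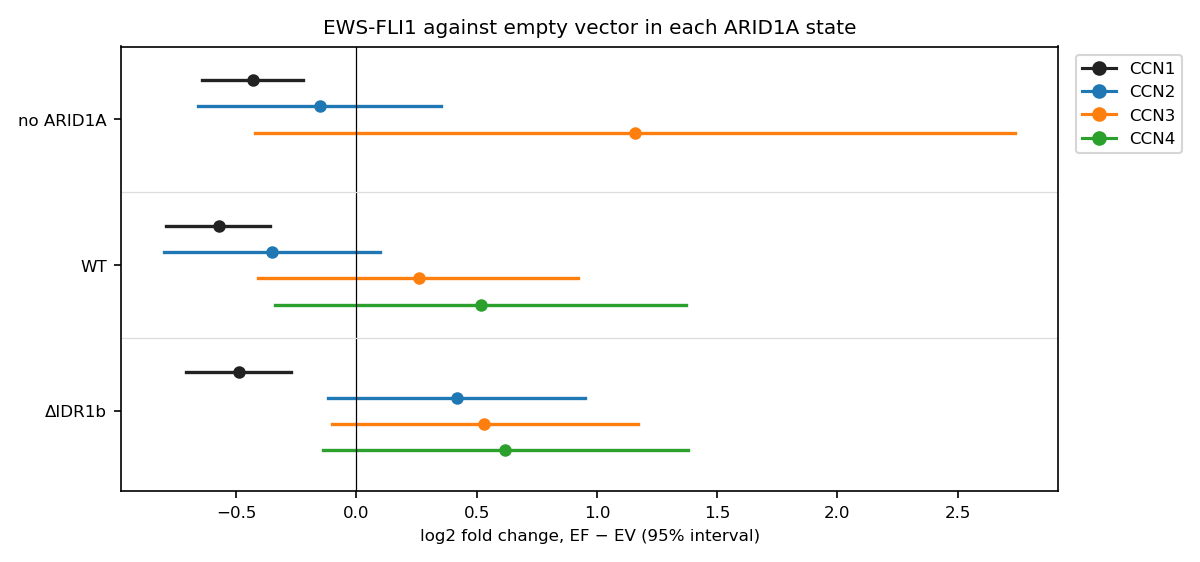
Log2 fold change of EWS-FLI1 against the empty vector (x axis, with its 95% interval) for the tested members in each ARID1A state, given as a description with no test. CCN1 lies at -0.43, -0.57 and -0.49, CCN2 is on both sides of 0, and CCN4 in no ARID1A is left out because its empty-vector libraries held 0 counts.

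The response to EWS-FLI1 was compared between the states by the interaction of vector and state. No tested member was called in any of the 3 interactions with edgeR or DESeq2 (0 of 4 each), where 0.0245%, 0.0196% and 0% of all tested genes were called by edgeR. At an unadjusted p under 0.05 each interaction had 1 member, CCN4 for WT and for ΔIDR1b against no ARID1A, and CCN2 for ΔIDR1b against WT. For CCN4 these rest on its 0 counts. For CCN2 the log2 effect was 0.77 higher in ΔIDR1b than in WT (95% interval 0.07 to 1.47, adjusted p = 1, edgeR). For CCN1 the differences were -0.14 (-0.44 to 0.16) for WT and -0.06 (-0.36 to 0.25) for ΔIDR1b against no ARID1A, and 0.08 (-0.22 to 0.39) between the 2 forms. All 3 intervals for CCN1 include 0, and none reaches beyond -0.44 or 0.39.

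The genes that act with the family were examined through 6 lists, written from general knowledge but with earlier results of these data known. The counts below are therefore a description. Of 39 receptors and partners of CCN proteins, 34 were tested. With the empty vector 7 were called higher and 1 lower in WT than in no ARID1A (median log2 fold change 0.17, against -0.01 for all tested genes, of which 6.5% were higher and 5.19% lower). In ΔIDR1b 12 were higher and 1 lower (median 0.42 against 0.00, with 16.4% and 16.8% of all tested genes). Syndecan SDC4, a heparan sulfate proteoglycan and coreceptor of integrins, rose in both (1.39, SE 0.14, and 1.21, SE 0.14; adjusted p = 2.30e-08 and 4.30e-08, edgeR), from 17.5 CPM to 46 and 40.7 CPM. NOTCH1, a binding partner of CCN3, rose in ΔIDR1b (1.36, SE 0.13, adjusted p = 2.65e-10), from 44.6 to 115 CPM. VEGFA, an angiogenic factor that CCN2 binds, was the 1 gene called lower in each, at 420, 240 and 141 CPM in no ARID1A, WT and ΔIDR1b. Between the 2 forms of ARID1A, 5 were higher and 3 lower, beside 11.1% and 13.4% of all tested genes, among them the collagen-binding integrin chain ITGA2 higher in ΔIDR1b (0.87, SE 0.21, adjusted p = 0.00222).

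Of 37 transcription inputs of the CCN genes, all tested, 10 were called higher and 1 lower in WT than in no ARID1A with the empty vector (all tested genes: 6.5% and 5.19%), and 9 higher and 4 lower in ΔIDR1b (16.4% and 16.8%). Between ΔIDR1b and WT, 4 were higher and 9 lower (11.1% and 13.4%; median -0.15, against 0.01 for all). SRF, which drives CCN1 and CCN2 on serum stimulation, rose in WT (0.60, SE 0.11, adjusted p = 2.09e-04, edgeR). Its cofactor MRTFA rose in WT (0.70, SE 0.13) and in ΔIDR1b (0.99, SE 0.13). FOS, an immediate early AP-1 subunit, was the 1 gene lower in WT (-1.44, SE 0.11) and fell further in ΔIDR1b (-3.37, SE 0.12, adjusted p = 7.82e-21), with 186, 68.3 and 18 CPM in the 3 states. RHOA, the GTPase upstream of YAP and MRTF, was lower in ΔIDR1b than in WT (-0.50, SE 0.09, adjusted p = 1.28e-04).

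Among 24 TEAD targets other than CCN1 and CCN2, 23 were tested. With the empty vector 6 were called higher and 1 lower in WT than in no ARID1A (median 0.27; all tested genes: 6.5% and 5.19%), and 12 higher and 2 lower in ΔIDR1b (median 0.50; 16.4% and 16.8%). Between ΔIDR1b and WT, 5 were higher and 2 lower (median 0.21, with 11.1% and 13.4% of all tested genes), while CCN1 and CCN2 were both lower. ANKRD1, a cardiac ankyrin repeat protein used like CCN1 and CCN2 as a YAP readout, rose in WT (2.66, SE 0.23) and in ΔIDR1b (2.78, SE 0.23, adjusted p = 2.07e-11, edgeR), from 2.83 to 17.9 and 19.5 CPM. The receptor tyrosine kinase AXL stood at 4.29, 11 and 16.1 CPM in the 3 states (1.36, SE 0.25, and 1.91, SE 0.25, both called). GADD45A, a stress-induced growth arrest gene, had the order of CCN1, with 278, 443 and 146 CPM, and was lower in ΔIDR1b than in WT (-1.60, SE 0.10, adjusted p = 1.41e-13). In the same comparison TNFRSF12A was also called lower (-0.85, SE 0.16), while ARHGEF17 (0.89, SE 0.14) and AJUBA (0.78, SE 0.15) were called higher. With EWS-FLI1 the TEAD targets gave 5 higher and 1 lower in WT (all tested genes: 9.72% and 8.36%), 11 higher and 2 lower in ΔIDR1b (18.1% and 17.9%), and 3 higher and 1 lower between the 2 forms (8.48% and 10.1%). With EWS-FLI1 against the empty vector, averaged over the states, 0.466% of all tested genes were called and 1 of the 23, MYOF, a membrane repair gene, which was lower (-0.69, SE 0.13, adjusted p = 0.00467).

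The same shares of all tested genes, with the empty vector, apply to the last 3 lists: 6.5% higher and 5.19% lower in WT than in no ARID1A, 16.4% and 16.8% in ΔIDR1b, and 11.1% and 13.4% in ΔIDR1b against WT. Of 24 SRF and MRTF targets, 23 were tested. There 9 were higher and 1 lower in WT than in no ARID1A, 8 higher and 5 lower in ΔIDR1b, and 4 higher and 10 lower in ΔIDR1b than in WT (median -0.20). FOS, which is also on the list of transcription inputs, was among the 10 lower and had the largest change (-1.92, SE 0.12, adjusted p = 1.41e-13, edgeR). The actin-binding gene TAGLN was among the 4 higher (1.35, SE 0.31, adjusted p = 0.00158). Of 18 SMAD targets, which TGF-β and BMPs induce, 17 were tested. There 1 was higher and 7 lower in WT (median -0.34), and 2 higher and 7 lower in ΔIDR1b (median -0.36). In ΔIDR1b against WT 2 were higher and 6 lower (median -0.03). With EWS-FLI1 3 were higher and 7 lower in WT than in no ARID1A (all tested genes: 9.72% and 8.36%), and the median was only -0.06. ID3, an inhibitor of basic helix-loop-helix factors, was lower with the empty vector in WT (-0.94, SE 0.12) and in ΔIDR1b (-1.99, SE 0.12). Of 20 β-catenin targets, 17 were tested. With the empty vector 4 were higher in WT and 6 in ΔIDR1b, and 0 were lower in either (edgeR), while the median was 0.20 and 0.42. In ΔIDR1b against WT 3 were higher and 0 lower (median 0.08). Cyclin D1 (CCND1) stood at 17, 30.6 and 46.1 CPM, and NKD2, a feedback gene of Wnt signalling, at 32.1, 57.7 and 56.7 CPM.

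For each tested member the 5 genes with the highest Pearson's r of log2 CPM over the 12 libraries were taken from 10563 or 10564 genes with a mean of at least 10 CPM. For CCN1 these were TM2D3 (r = 0.989), TSC22D2 (0.984), HSPA5 (0.981), SF3B2 (0.975) and GADD45A (0.975). HSPA5, the endoplasmic reticulum chaperone BiP, had differences between ΔIDR1b and WT close in size to those of CCN1, with log2 fold changes of -2.14 in empty-vector and -1.91 in EWS-FLI1 libraries, and the other 4 had smaller ones (-0.42 to -1.60). For CCN2 they were DDAH1 (0.967), HERPUD1 (0.964), EIF2S3 (0.953), GSR (0.952) and ADH5 (0.947), of which HERPUD1 had a log2 difference of -1.18 and the others of -0.43 to -0.29 with the empty vector. For CCN3 they were DDX24 (0.982), BMP6 (0.978), EFL1 (0.975), JADE3 (0.975) and NIPA1 (0.973). BMP6, a bone morphogenetic protein, stood at 19.7, 39.2 and 35 CPM in no ARID1A, WT and ΔIDR1b with the empty vector. For CCN4 they were ERCC6L (0.975), VKORC1L1 (0.975), CHST2 (0.971), ZNF791 (0.969) and ABCB1 (0.969). CHST2, a sulfotransferase of glycans, stood at 5.03, 13.3 and 22 CPM in the same order of states. These r values are a description, since the 12 points fall into 6 groups and are not independent.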

How the data were processed

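The files hold raw counts of fragments per gene name, which the authors deposited without normalization. Per the file headers, featureCounts 2.0.1 counted fragments over exons, GENCODE 41 being the annotation and GRCh38 (patch 13) the genome, with both ends aligned, no strand option and no counting of fragments that map to several places or overlap several genes. The submitters' processing notes name STAR, whose version is not given in the sources used here.

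Here, filterByExpr (minimum count 10, minimum total 15), TMM scaling and a quasi-likelihood fit of 6 group means to all 12 libraries were run with edgeR 4.0.16 in R 4.3.3, and 13 contrasts were tested. The SE is the log2 fold change divided by the square root of F. Count ratios have exact binomial (Clopper-Pearson) 95% intervals. CPM per kilobase used the exon length in the files. The chi-square per degree of freedom between repeats ran from 3.13 to 13.6, so no pair was 1 library deposited again. The difference between repeats correlated across 10695 genes with r from 0.104 to 0.412 within a vector and from -0.223 to -0.00785 across vectors, so numbers pair libraries within a vector by their values, not by the labels. Tested on simulated data (19526 genes, 200 of them changed), ΔIDR1b against WT with the empty vector recovered 69% of changes of 1 on the log2 scale and 89% of changes of 2, with 10 calls of unchanged genes. Alternatives were DESeq2 1.42.0, upper-quartile factors, no filter, only the libraries compared, the repeat block, offsets for GC and length trends (GC known for 96.1% of tested genes, from GENCODE transcripts), a log2 limit of 1, and leaving out each library. The members and lists were chosen with earlier results of these data known. All 6 members are named, from each list at most 4 called genes per contrast with at least 1 CPM and the largest change, and the 5 genes most like each member.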

Additional observations from a re-analysis of the deposited data

How the results depend on the processing

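Under every other fit and with each library left out, the calls of CCN1 between ARID1A states held, as did those of CCN2 in ΔIDR1b against WT. The other calls of CCN2, and CCN4 in ΔIDR1b against WT, changed as follows. For CCN4 in ΔIDR1b against WT with the empty vector the value was 1.03 with the replicate block within each vector, 1.03 with GC and length trends removed, 1.04 with both and 1.02 when only the libraries compared were fitted, each called. With EWS-FLI1 it was 1.11 and not called in DESeq2. The replicate block changed no other call. With trends removed together with the block, the effect of EWS-FLI1 on CCN2 was 0.13 in no ARID1A, -0.08 in WT and 0.24 on average. A log2 limit of 1 lost the calls of CCN1 in WT against no ARID1A (0.72 among empty-vector libraries, 0.57 among EWS-FLI1 libraries). The limit also lost CCN2 in WT against no ARID1A among EWS-FLI1 libraries (0.91). Among empty-vector libraries it lost CCN2 in ΔIDR1b against no ARID1A (-0.89).

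Leaving out single libraries gave these log2 ranges. Between states with the empty vector, CCN2 ran from 0.79 to 1.53 (WT against no ARID1A) and from -1.22 to -0.48 (ΔIDR1b against no ARID1A), and in ΔIDR1b against WT CCN3 ran from -0.06 to 0.52 and CCN4 from 0.71 to 1.40. With EWS-FLI1, CCN2 ran from 0.75 to 1.06 (WT against no ARID1A) and CCN4 from 0.77 to 1.59 (ΔIDR1b against WT). The effect of EWS-FLI1 ran from -0.47 to 0.26 for CCN2 and 0.44 to 2.39 for CCN3 in no ARID1A, and from -0.61 to -0.35 for CCN1 in ΔIDR1b. Interactions, all uncalled, ran from -0.62 to 0.12 for CCN2 (WT against no ARID1A), from -0.18 to 0.08 for CCN1 and -1.86 to 0.10 for CCN3 (ΔIDR1b against no ARID1A), and from -0.04 to 0.22 for CCN1 and -0.29 to 0.58 for CCN4 (ΔIDR1b against WT). For CCN4 the adjusted p of the interactions with no ARID1A ran from 0.297 to 1 for WT and from 0.997 to 1 for ΔIDR1b, the fitted direction turning without repeat 1 of no ARID1A with EWS-FLI1. The cause was not tested. There were 2 libraries a group, and under 10 counts of CCN3 or CCN4 in each library of no ARID1A. Depth therefore limits the size of their differences from that state. The direction of these differences followed from the filter on low counts and is not read as a result.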
